A study of Mus musculus with 12 samples.

Results

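The genes described here are 9 genes of myeloid cells and innate immunity, which were taken by symbol from the 770 genes measured on an RNA counting panel for cancer pathways. All 9 were present on the panel. By role they are the cytokine receptors *Csf1r* and *Csf3r*, the pattern recognition receptors *Cd14*, *Tlr2* and *Tlr4*, the signal transducers *Myd88*, *Syk* and *Rac2*, and the cytokine *Il1b*. RNA from 12 fresh frozen mouse samples was analyzed. The 5 *RBS* lesions were eyes of Rax-creERT2::Ctnnb1(ex3)Fl/+SmoM2Fl/+ embryos collected at E18.5 after the pregnant dam had received tamoxifen at E8.5. The 4 control eyes, also from E18.5, carried the same floxed Ctnnb1(ex3) and SmoM2 alleles without Cre, and their labels do not say whether tamoxifen was given. The 3 Shh-MBs were tumors of the cerebellum, taken at an age of 14 days from hGFAP-cre::SmoM2Fl/+ mice that carried no floxed Ctnnb1 allele. SmoM2 is an active form of Smoothened, loss of exon 3 stabilizes beta-Catenin, and the *Rax* promoter confines the inducible Cre to retinal precursors and few other sites. Age and tissue differ between the eyes and the Shh-MBs, so tumor, organ and age cannot be told apart in any comparison with Shh-MBs. Each sample was labelled as a separate mouse or embryo, while litters were not given.

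Myeloid cells comprise monocytes, macrophages, neutrophils and, in the brain and retina, microglia, which settle there during embryonic development. CSF1R is the receptor that keeps macrophages and microglia alive, and CSF3R is the receptor for the growth factor of neutrophils. CD14 hands bacterial lipopolysaccharide to TLR4, TLR2 senses bacterial lipoproteins, and MYD88 is the adaptor through which both receptors reach NF-kB. SYK is a tyrosine kinase below Fc and integrin receptors, RAC2 is the small GTPase of blood cells, and IL-1 beta, the product of *Il1b*, is a secreted inflammatory cytokine that itself signals through MYD88. Retinal and cerebellar cells are not the usual source of most of these transcripts. In RNA from whole eyes or tumors, fewer cells of a type and less RNA per cell cannot be told apart.

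Upstream sequences of 5 of the 9 genes, with 6 start sites, were found in the RefSeq promoter table for GRCm38.p6. The 250 bases before the start are shown for *Tlr2*, *Myd88* and *Syk*, because the signal of these genes was higher in *RBS* lesions than in Shh-MBs as deposited, although after quantile normalization the differences of *Tlr2* and *Syk* were below 0 and that of *Myd88* above 0. A set of 3 letter patterns was searched on both strands. The first was GAGGAA, a longer form of the GGAA core bound by Ets factors, and GGAA alone was not searched. The second was GAAA followed after any 2 bases by GAAA, an interferon response type element. The third was GGG followed after any 3 bases by TTCC, an NF-kB type element. Of 32851 promoters of the same length, 23.3% held GAGGAA, 2.98% held the interferon response type and 4.65% the NF-kB type. Capitals mark a match. The *Tlr2* sequence (chr3:83841609-83841858, minus strand) held 1 NF-kB type match from 173 to 164 bases before the start. The *Myd88* sequence (chr9:119340019-119340268, minus strand) held 1 interferon response type match from 40 to 31 bases before the start. Of the 2 listed starts of *Syk*, the first (chr13:52583187-52583436, plus strand) held no match and the second (chr13:52596632-52596881, plus strand) held GAGGAA from 9 to 4 bases before the start.
Tlr2: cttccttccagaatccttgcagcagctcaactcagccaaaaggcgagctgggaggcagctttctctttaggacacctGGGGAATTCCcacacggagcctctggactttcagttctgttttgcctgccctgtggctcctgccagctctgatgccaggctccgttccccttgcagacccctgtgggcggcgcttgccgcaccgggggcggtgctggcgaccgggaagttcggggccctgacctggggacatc
Myd88: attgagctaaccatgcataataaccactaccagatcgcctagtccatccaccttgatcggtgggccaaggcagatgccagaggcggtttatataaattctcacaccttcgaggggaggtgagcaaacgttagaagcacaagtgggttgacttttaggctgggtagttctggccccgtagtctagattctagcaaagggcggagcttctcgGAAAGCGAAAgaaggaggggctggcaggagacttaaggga
Syk, start 1: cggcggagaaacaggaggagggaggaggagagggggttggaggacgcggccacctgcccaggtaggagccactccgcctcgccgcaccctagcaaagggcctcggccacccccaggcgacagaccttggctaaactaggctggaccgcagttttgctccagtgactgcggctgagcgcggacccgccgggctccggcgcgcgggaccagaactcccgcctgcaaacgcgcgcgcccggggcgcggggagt
Syk, start 2: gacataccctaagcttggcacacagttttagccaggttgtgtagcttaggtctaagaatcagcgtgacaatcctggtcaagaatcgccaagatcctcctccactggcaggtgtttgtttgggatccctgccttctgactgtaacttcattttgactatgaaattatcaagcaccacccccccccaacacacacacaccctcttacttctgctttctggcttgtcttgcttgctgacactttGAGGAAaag
The patterns are described by their letters alone. The promoters of *Csf3r*, which held both GAGGAA and the NF-kB type, and of *Il1b*, which held none of the 3 patterns, are not shown.

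Values are the normalized signal that was deposited, on a linear scale and without a unit of its own. Low values of a sample lay on evenly spaced steps, and 1 step is called a count here. Expressed in such counts, the summed signal was between 335348 and 716963 counts per sample, with the smallest depth in *RBS* 1. Between 52 and 123 of the 770 genes sat at the lowest value of their sample. Signals of different genes come from different probes and are not compared as transcript levels. Most of the 9 genes were near the low end. Of their 108 values, 69 were under 20, 20 rested on fewer than 5 counts, and 2 were at the lowest value of the sample, namely *Cd14* in control 2 and *Il1b* in *RBS* 1. The median signal over the panel was 112 to 125 in control eyes, 130.0 to 139 in *RBS* lesions, and between 67.0 and 86.5 in Shh-MBs. *Csf1r* came closest to this middle range. Its signal was above that of 40.1% to 65.6% of the panel's genes in all 12 samples.

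*Csf1r* had a signal of 74.5, 66.2, 73.6 and 101 in control eyes 1 to 4, of 188, 153, 178, 178 and 139.5 in *RBS* lesions 1 to 5, and of 201, 97.0 and 88.0 in Shh-MBs 1 to 3. Every *RBS* lesion lay above every control eye. The Shh-MBs were split, since Shh-MB 1 held the highest signal of all samples and the other two lay within the range of the control eyes. The mean signal was 78.9 ± 15.3 (SD, n = 4) in control eyes, 167 ± 20.1 (n = 5) in *RBS* lesions and 129 ± 62.6 (n = 3) in Shh-MBs. *Csf3r* had a signal of 4.05, 13.5, 4.59 and 8.42 in control eyes, of 7.03, 9.82, 10.1, 14.5 and 12.4 in *RBS* lesions, and of 9.22, 9.91 and 7.42 in Shh-MBs. The groups overlapped, with the widest range in control eyes.

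Among the pattern recognition receptors, *Cd14* had a signal of 4.05, 1.01, 3.53 and 3.21 in control eyes, of 21.8, 5.78, 5.66, 21.7 and 7.80 in *RBS* lesions, and of 9.22, 11.8 and 7.42 in Shh-MBs. All control eyes were below all other samples, and *RBS* 1 and *RBS* 4 were far above the other 3 lesions. The control values amounted to 1.00 to 3.45 counts, those of *RBS* lesions to 6.42 to 18.0 counts. *Tlr2*, the lipoprotein receptor, had a signal of 12.3, 7.46, 16.3 and 18.8 in control eyes, of 11.95, 13.9, 17.1, 18.1 and 14.2 in *RBS* lesions, and of 9.22, 6.16 and 10.8 in Shh-MBs. The Shh-MBs lay below every *RBS* lesion but overlapped with the control eyes, and *RBS* lesions lay within the range of the control eyes. *Tlr4*, the lipopolysaccharide receptor, had a signal of 25.2, 14.6, 10.97 and 20.9 in control eyes, of 23.4, 13.1, 25.9, 30.2 and 23.4 in *RBS* lesions, and of 12.6, 14.6 and 14.2 in Shh-MBs. All 3 groups overlapped, through *RBS* 2 and the control eyes 2 and 3 at the low end.

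**Figure D1:**
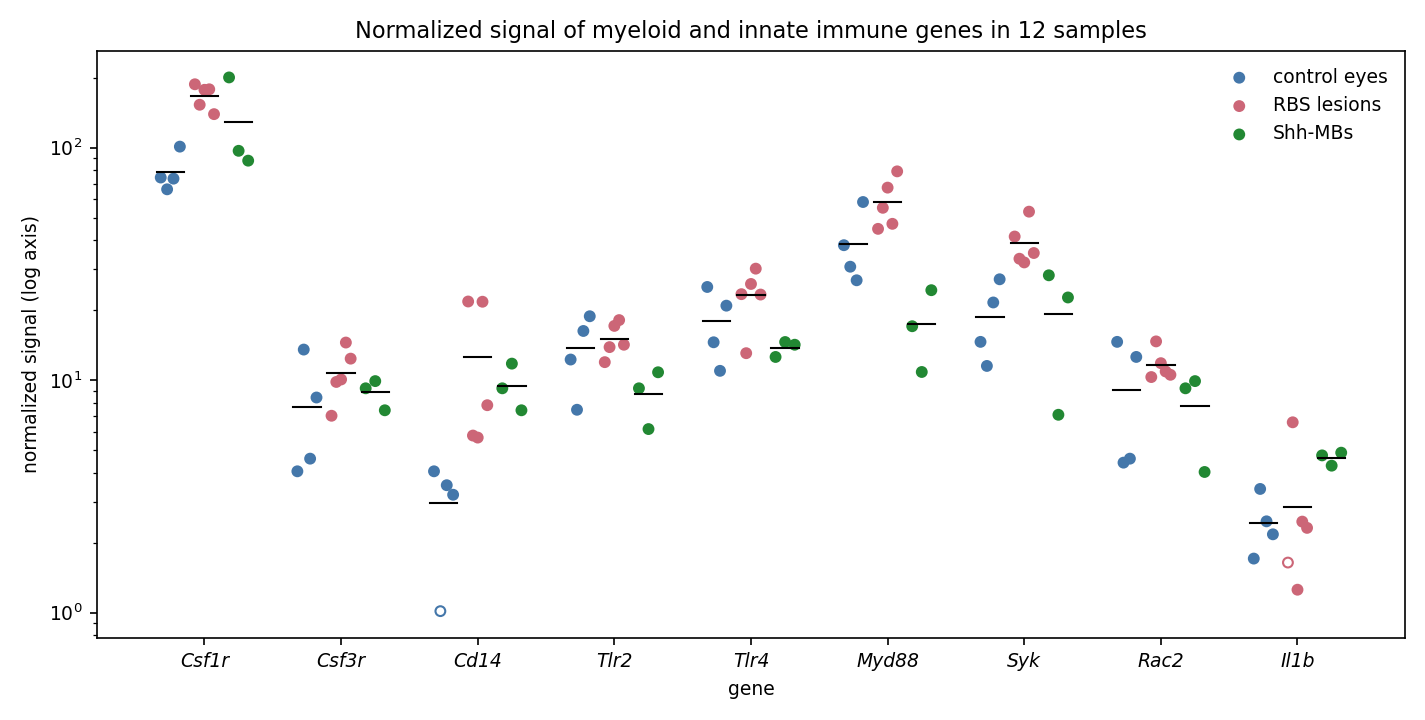
Normalized signal (log axis) of the 9 genes in 4 control eyes, 5 *RBS* lesions and 3 Shh-MBs; each point is 1 sample, horizontal lines are group means and hollow points are values at the lowest value of the sample. The *Csf1r* signal was 139.5 to 188 in the *RBS* group and 66.2 to 101 in the control group, while *Il1b* stayed under 7 in every sample.

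The signal transducers of the 9 genes were *Myd88*, *Syk* and *Rac2*. *Myd88* had a signal of 38.1, 30.8, 26.9 and 58.4 in control eyes, of 44.8, 55.2, 67.4, 47.1 and 79.1 in *RBS* lesions, and of 17.1, 10.8 and 24.4 in Shh-MBs. The Shh-MBs were the lowest 3 samples, while control 4 was above 3 of the *RBS* lesions. *Syk* had a signal of 14.6, 11.5, 21.6 and 27.2 in control eyes, of 41.5, 33.3, 32.1, 53.1 and 35.2 in *RBS* lesions, and of 28.3, 7.10 and 22.7 in Shh-MBs. All *RBS* lesions were above all other samples, and Shh-MB 2 was the lowest sample. *Rac2* had a signal of 14.6, 4.42, 4.59 and 12.6 in control eyes, of 10.3, 14.7, 11.8, 10.9 and 10.5 in *RBS* lesions, and of 9.22, 9.91 and 4.03 in Shh-MBs. The *RBS* lesions were close to each other and above the Shh-MBs, whereas 2 control eyes lay below the lesions and 2 within their range. The paralog *Rac1*, which is expressed in most cell types, had a mean signal of 2181 ± 116 in control eyes, 2661 ± 163 in *RBS* lesions and 2058 ± 161 in Shh-MBs.

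*Il1b*, the cytokine, had a signal of 1.71, 3.40, 2.47 and 2.17 in control eyes, of 1.64, 6.59, 1.25, 2.46 and 2.31 in *RBS* lesions, and of 4.75, 4.29 and 4.87 in Shh-MBs. The Shh-MBs were above all control eyes and above 4 of the 5 *RBS* lesions, and *RBS* 2 was the highest sample. The Shh-MB values correspond to 4.24 to 5.75 counts, so the cytokine itself was barely above the lowest values.

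Next, *RBS* lesions were compared with control eyes, which asks how these genes differ in eyes with Shh and Wnt co-activation. Signals of *Csf1r*, *Syk* and *Cd14* were higher in *RBS* lesions, by 2.12-fold, 2.10-fold and 3.10-fold on the scale of log2 of the signal plus 1, which understates changes of low genes. No gene of the 9 was lower. *Csf1r* rose by 1.08 on the log2 scale (SE 0.144, 95% interval 0.76 to 1.41, limma, adjusted *p* = 0.000271). *Syk* rose by 1.07 (SE 0.251, 95% interval 0.50 to 1.64, adjusted *p* = 0.00629). *Cd14* rose by 1.63 (SE 0.475, 95% interval 0.55 to 2.71, adjusted *p* = 0.0180), and the ratio of its mean signals was 4.25. These 3 genes are a macrophage growth factor receptor, a kinase of immune receptors and a lipopolysaccharide co-receptor. The groups did not overlap for the same 3 genes, compared with 27.5% of the panel's genes that were higher and 15.8% that were lower without overlap.

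Over the whole panel, 51.2% of genes passed the threshold, 33.0% as higher and 18.2% as lower in *RBS* lesions, so that 3 higher genes of 9 is the share found among all genes. The log2 differences of the other 6 genes were 0.62 for *Myd88* (adjusted *p* = 0.0639), 0.54 for *Csf3r* (adjusted *p* = 0.203), 0.49 for *Rac2* (adjusted *p* = 0.264), 0.37 for *Tlr4* (adjusted *p* = 0.316), 0.18 for *Tlr2* (adjusted *p* = 0.570) and 0.04 for *Il1b* (adjusted *p* = 0.920), and none passed the threshold. Their intervals were wide. For *Tlr2* it ran from -0.37 to 0.73 and for *Il1b* from -0.70 to 0.79. All 9 differences were above 0 as deposited, with a median of 0.54 beside 0.17 over the panel. That of *Il1b* fell below 0 after median centring and after quantile normalization, and that of *Tlr2* after quantile normalization. The call of *Cd14* was lost without control 2, its lowest sample (1.33, adjusted *p* = 0.0514), after quantile normalization (1.23, adjusted *p* = 0.0561) and with values under 20 set to 20 (0.049, adjusted *p* = 0.291), and *Cd14* was not tested where genes with a low mean were left out, while *Csf3r* passed without control 2 (0.84, adjusted *p* = 0.0337) and *Myd88* without control 4 (0.84, adjusted *p* = 0.0111). The calls of *Csf1r* and *Syk* were lost in none of the alternatives tried but the methods' t-test with Bonferroni adjustment, where no gene of the 9 passed.

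**Figure D2:**
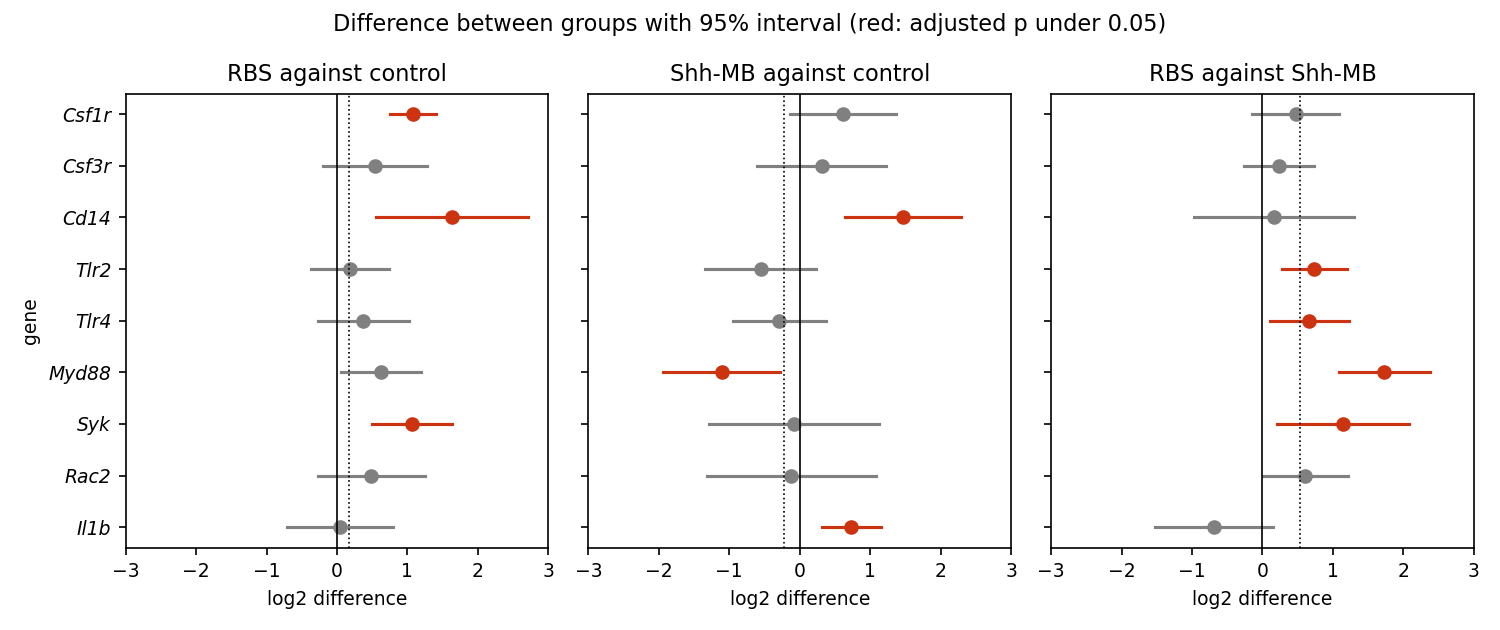
Differences between groups on the log2 scale (points) with 95% intervals (bars) for the 9 genes in 3 comparisons; red marks an adjusted *p* under 0.05 and the dotted line is the median of all 770 genes. *Csf1r*, *Cd14* and *Syk* rose in *RBS* lesions against control eyes, and in the comparisons with Shh-MBs every called difference except those of *Cd14* and *Il1b* against control eyes changed sign or lost its call under another scaling of the samples. These exceptions rested on signals under 20 and did not pass with values under 20 set to 20.

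The comparison of Shh-MBs with control eyes places the same genes in a tumor with Shh activation alone, in another organ and at a later age. It shares the 4 control eyes with the comparison above. *Cd14* and *Il1b* were higher in Shh-MBs, both on low counts and with every signal under 20. *Cd14* amounted to 1.00 to 3.45 counts in control eyes and 8.24 to 12.6 in Shh-MBs. *Il1b* amounted to 1.45 to 3.36 counts in control eyes and 4.24 to 5.75 in Shh-MBs. *Cd14* differed by 1.47 on the log2 scale (SE 0.345, adjusted *p* = 0.0141) and *Il1b* by 0.73 (SE 0.174, adjusted *p* = 0.0144), and neither overlapped with the control eyes. *Myd88* was lower by a log2 difference of -1.11 (SE 0.347, adjusted *p* = 0.0420) as deposited, but the difference was -0.44 (adjusted *p* = 0.261) after centring each sample on its median and 0.13 (adjusted *p* = 0.716) after quantile normalization. Over the panel, 41.0% of genes passed, 9.61% as higher and 31.4% as lower, beside 2 and 1 of the 9 genes. Without overlap between the groups, 12.2% of the panel's genes were higher and 36.0% were lower. The differences of the other 6 genes did not pass the threshold. They were 0.61 for *Csf1r*, 0.31 for *Csf3r*, -0.08 for *Syk*, -0.12 for *Rac2*, -0.29 for *Tlr4* and -0.56 for *Tlr2*, and all 4 negative values turned positive after median centring and after quantile normalization, when *Syk* passed as higher. *Csf1r* passed the threshold as higher under the 3 other scalings, with 0.92 when scaled to all but the 3 most abundant genes, 1.28 after median centring and 1.25 after quantile normalization. *Cd14* lost its call without Shh-MB 2 (1.31, adjusted *p* = 0.0541), *Il1b* with all 12 samples in 1 fit (adjusted *p* = 0.105), and *Myd88* kept its call only without Shh-MB 3 or control 3 among the 7 fits that left out 1 sample, with adjusted *p*-values from 0.0297 to 0.127. With values under 20 set to 20, and with the replicate block, no gene of the 9 passed in this comparison.

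*RBS* lesions were then compared with Shh-MBs, the other tumor-like tissue of the study. As deposited, the adaptor *Myd88* was 3.32-fold, the kinase *Syk* 2.22-fold, *Tlr2* 1.67-fold and *Tlr4* 1.59-fold higher in *RBS* lesions, but *Syk*, *Tlr2* and *Tlr4* were lower after quantile normalization and both Toll-like receptors also after median centring. The log2 differences were 1.73 for *Myd88* (SE 0.281, adjusted *p* = 0.000855), 1.15 for *Syk* (SE 0.404, adjusted *p* = 0.0380), 0.74 for *Tlr2* (SE 0.198, adjusted *p* = 0.0114) and 0.66 for *Tlr4* (SE 0.244, adjusted *p* = 0.0438). Over the panel, 60.8% of genes passed, 48.1% as higher and 12.7% as lower in *RBS* lesions, beside 4 and none of the 9 genes. This count did not hold under the other scalings. After median centring *Myd88* passed as higher and *Csf3r* and *Il1b* as lower, and after quantile normalization none passed as higher while *Csf3r*, *Tlr2*, *Tlr4* and *Il1b* passed as lower. *Myd88* was the only one of these genes with a positive difference under all 4 scalings, with 1.37 when scaled to all but the 3 most abundant genes, 0.89 after median centring and 0.29 after quantile normalization, and the last did not pass the threshold (adjusted *p* = 0.448). The groups did not overlap for *Tlr2*, *Myd88*, *Syk* and *Rac2*, beside 47.0% of the panel's genes that were higher and 12.9% that were lower without overlap, yet the difference of 0.61 in *Rac2* did not pass (adjusted *p* = 0.0752). *Myd88* and *Tlr2* passed with each single sample left out, whereas *Syk* did not pass without Shh-MB 2 (0.58, adjusted *p* = 0.0603) or any 1 of the *RBS* lesions, and *Tlr4* passed only without *RBS* 2. *Rac2* passed without Shh-MB 2 (adjusted *p* = 0.0425). *Csf1r* differed by 0.47 (adjusted *p* = 0.162) with all samples and by 0.84 (adjusted *p* = 0.00186) without Shh-MB 1. With all samples, the differences of both genes were below 0 after median centring (-0.24 for *Rac2* and -0.38 for *Csf1r*) and after quantile normalization (-0.69 and -0.23). For *Cd14* the difference was 0.16, with an interval from -0.98 to 1.30, and for *Il1b* it was -0.69, with an interval from -1.53 to 0.15. As deposited *Il1b* did not pass, but it passed as lower under the 3 other scalings, with -0.99 (adjusted *p* = 0.0466) when scaled to all but the 3 most abundant genes, -1.54 (adjusted *p* = 0.00673) after median centring and -1.79 (adjusted *p* = 0.00693) after quantile normalization.

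Scaling moved the whole panel as well as these genes. The median log2 difference of all genes between *RBS* lesions and Shh-MBs was 0.53 as deposited, 0.19 when scaled to all but the 3 most abundant genes, -0.32 after median centring and -0.10 after quantile normalization. Between Shh-MBs and control eyes it was -0.22, 0.07, 0.44 and 0.17, respectively. For *RBS* lesions against control eyes it was 0.17, 0.11, -0.01 and 0.00. Relative to the panel median as deposited, *Csf1r* differed by 0.91, *Syk* by 0.90 and *Cd14* by 1.46 in *RBS* lesions against control eyes, and *Myd88* differed by 1.20 in *RBS* lesions against Shh-MBs.

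**Figure D3:**
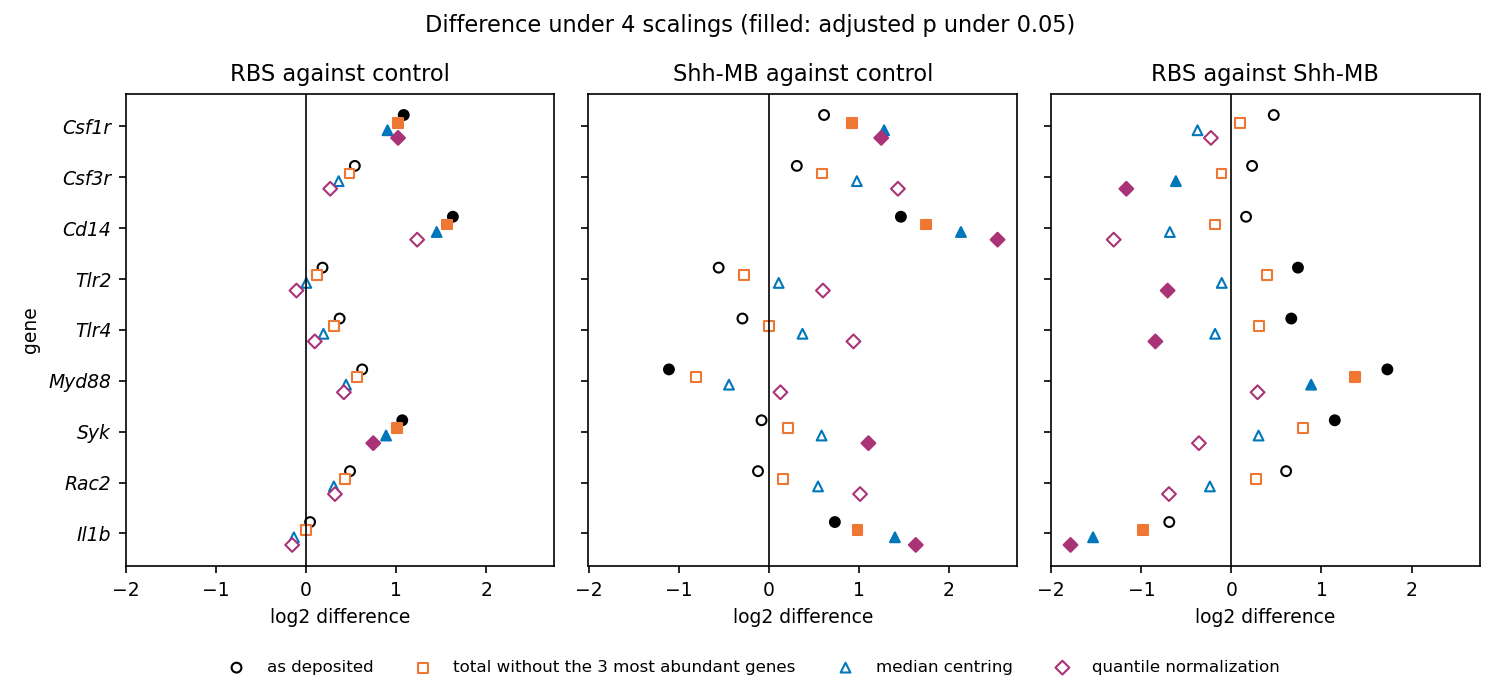
Differences between groups on the log2 scale for the 9 genes under 4 scalings of the samples, with filled symbols where the adjusted *p* was under 0.05. *Csf1r* and *Syk* rose in *RBS* lesions against control eyes with filled symbols under all 4 scalings, whereas *Tlr2* and *Tlr4* against Shh-MBs turned from positive, as deposited, to negative after median centring and quantile normalization.

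The pathway below the Toll-like and IL-1 receptors was followed with 18 further genes on the panel, out of a list of 44. In *RBS* lesions against control eyes, 4 of the 18 were higher and none was lower, a smaller share than the 33.0% and 18.2% of the panel, with a median difference of 0.35 on the log2 scale. *Rel*, a subunit of NF-kB, had a signal of 8.75, 6.44, 10.97 and 15.7 in control eyes and of 25.1, 17.9, 13.6, 16.9 and 27.0 in *RBS* lesions, and rose by 0.90 (adjusted *p* = 0.0199). Only *RBS* 3 lay below the highest control eye. *Rela*, another subunit, rose by 0.45 (adjusted *p* = 0.00276), *Nfkbia*, which encodes the inhibitor that holds NF-kB in the cytoplasm, by 0.44 (adjusted *p* = 0.0153), and *Chuk*, a kinase that acts on such inhibitors, by 0.40 (adjusted *p* = 0.00406). *Chuk* was named after its value was seen. These last 3 genes are expressed in most cell types. After median centring 2 of the 18 genes passed as higher and after quantile normalization 1 as higher and 1 as lower. The call of *Rel* was lost without control 1 (0.84, adjusted *p* = 0.0539) or control 2 (0.71, adjusted *p* = 0.0538), and leaving out each sample left 3 to 6 of the 18 genes higher, the 6 without control 4.

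In Shh-MBs against control eyes, *Rel* was higher (1.18, adjusted *p* = 0.0138), and it remained so under the other 3 scalings. *Irak3*, an inhibitory member of the IRAK family, and *Tnfaip3*, a feedback inhibitor of NF-kB, were lower as deposited, by log2 differences of -2.34 (adjusted *p* = 0.0138) and -1.27 (adjusted *p* = 0.00884). Both stayed below 0 under the other scalings, but after quantile normalization neither passed the threshold (adjusted *p* = 0.0663 for *Irak3* and 0.842 for *Tnfaip3*), nor did *Tnfaip3* after median centring (adjusted *p* = 0.0513). *Irak3* had a signal of 1.12, 1.00 and 4.87 in Shh-MBs and of 6.44 to 26.1 in control eyes. The first 2 Shh-MBs were at the lowest value of their sample, so the size and rank of its differences from Shh-MBs depend on that value. Its call was lost without Shh-MB 2 (-2.07, adjusted *p* = 0.0525). Of the 18 genes, 2 were higher and 4 were lower as deposited (1 and 1 without Shh-MB 2), beside 9.61% and 31.4% of the panel, whereas 9 were higher and 1 was lower after median centring, when 311 genes of the panel were higher and 139 lower. Against Shh-MBs, 6 were higher in *RBS* lesions and none was lower as deposited, led by *Irak3* (2.23), *Tnfaip3* (1.61) and the IL-1 receptor *Il1r1* (1.53), beside 48.1% and 12.7% of the panel, while 2 were higher and 9 were lower after median centring, when 181 genes of the panel were higher and 319 lower.

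**Figure D4:**
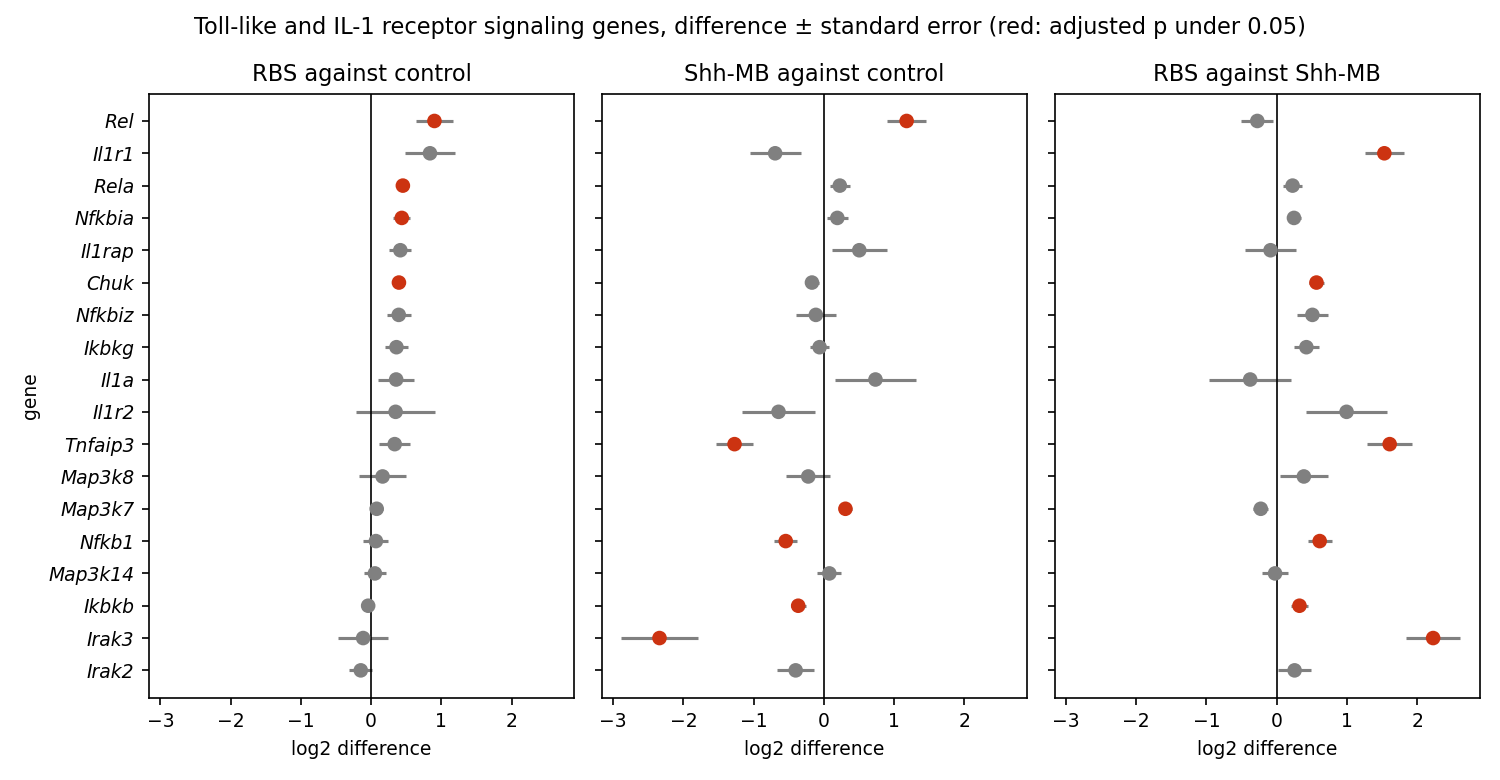
Differences on the log2 scale with standard errors for 18 genes of Toll-like and IL-1 receptor signaling in 3 comparisons of the signal as deposited; red marks an adjusted *p* under 0.05. *Rel*, *Rela*, *Nfkbia* and *Chuk* rose in *RBS* lesions against control eyes, and the counts in both comparisons with Shh-MBs changed direction after median centring.

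Cytokines and their receptors beyond the 9 genes were mostly near the lowest values. Of 43 such genes on the panel, out of a list of 58, 38 were under 20 in every control eye and 38 in every *RBS* lesion, and 40 in every Shh-MB. In *RBS* lesions against control eyes, 5 were higher and 2 were lower, which is a smaller share in both directions than the 33.0% and 18.2% of the panel. *Spp1*, which encodes osteopontin and is made by macrophages and by other cells, was the abundant exception. It had a signal of 219.9, 219, 156 and 368 in control eyes, of 514, 469, 496, 641 and 857 in *RBS* lesions, and of 122, 208 and 209 in Shh-MBs. All *RBS* lesions were above all other samples. *Spp1* was higher by 1.33 against control eyes (adjusted *p* = 0.00249) and by 1.73 against Shh-MBs (adjusted *p* = 0.000581), and passed as higher under all 4 scalings in both. The chemokine *Cxcl5* passed as higher (adjusted *p* = 0.0348), with 3 of 4 control eyes at the lowest value and *RBS* lesions at 1.21 to 10.5. The IL-7 receptor *Il7r* passed as higher (adjusted *p* = 0.00606), with 3 of 4 control eyes at the lowest value and a signal of 1.64 to 7.42 in *RBS* lesions. *Il12a*, a subunit of IL-12, passed as lower (adjusted *p* = 0.000462), from 5.66 to 9.92 in control eyes, with 4 of 5 *RBS* lesions at the lowest value. With so many values at the lowest value, no fold is given for these 3 genes. *Cxcl5* passed in only 2 of 9 fits that left out 1 sample, those without *RBS* 4 or control 4, and the higher genes of the list numbered 3 after median centring and 3 to 5 with single samples left out.

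Other genes of leukocyte signaling numbered 19 on the panel, out of a list of 48, of which 5 rose and 1 fell in *RBS* lesions against control eyes, again less than the 33.0% and 18.2% of the panel. *Cebpa*, a transcription factor of myeloid development that is also active in other tissues, rose by 0.94 (adjusted *p* = 0.00901), from a mean signal of 87.2 ± 29.0 to 166 ± 43.9. *Rasgrp1*, an activator of Ras best known in lymphocytes, rose by 1.88 (adjusted *p* = 0.0190), and *Gata3*, a transcription factor of lymphocytes and of several epithelia and neurons, by 0.90 (adjusted *p* = 0.0497). *Socs3*, a feedback inhibitor of cytokine receptors, differed by -0.46 (adjusted *p* = 0.00889). *Gata3* passed in only 2 of 9 fits that left out 1 sample, those without control 3 or control 4, and under none of the 3 other scalings, and 2 genes of the list were higher after median centring. Leaving out single samples left 3 to 7 higher.

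Whether leukocytes were present could be checked with few markers. Of 36 other macrophage and neutrophil markers, only *Mpo* and *Mmp9* were on the panel, and neither passed the threshold between *RBS* lesions and control eyes (log2 differences of -0.18 and -0.13). *Mmp9*, a matrix protease of neutrophils and other cells, passed as higher in *RBS* lesions against Shh-MBs as deposited (1.76, adjusted *p* = 0.00633), but not after median centring (0.92, adjusted *p* = 0.0901) or quantile normalization (0.46, adjusted *p* = 0.429). The 10 lymphocyte markers on the panel, out of 32, were under 20 in all 12 samples, and *Ccr7* was at the lowest value in all of them. Their summed signal was 21.1 to 38.6 in control eyes, 23.4 to 31.8 in *RBS* lesions, and between 20.8 and 41.1 in Shh-MBs. *Il7r* was the only one that passed in *RBS* lesions against control eyes, as higher. In the comparisons with Shh-MBs the calls depended on the scaling. Median centring called 8 of the 10 lower in *RBS* lesions against Shh-MBs and 5 higher in Shh-MBs against control eyes, and quantile normalization called 3 and none, beside 1 higher and none as deposited. The 1 gene was *Il7r*, which passed against Shh-MBs in only 2 of 8 fits that left out 1 sample. Median centring moves a gene at the lowest value in both groups, as *Ccr7* was, by the medians of the samples alone. For such genes a call after centring gives no difference in expression. Some markers of other cell types also moved with the groups. As deposited, 33.0% of the panel's genes passed as higher and 18.2% as lower in *RBS* lesions against control eyes. The shares were 9.61% and 31.4% in Shh-MBs against control eyes, and 48.1% and 12.7% in *RBS* lesions against Shh-MBs. The summed signal of 5 endothelial markers was 1930 to 2392 in control eyes, 921 to 1164 in *RBS* lesions, and only between 194 and 290.2 in Shh-MBs. In the eyes most of it came from *Kdr*, with a mean of 1864 in control eyes and 664 in *RBS* lesions. Between *RBS* lesions and control eyes only *Kdr* passed, as lower. The other 4 had higher means in *RBS* lesions and did not pass. The summed signal of 7 mesenchyme markers, most of it from *Col1a1* and *Col3a1*, was 24117 to 54725, 18718 to 34922 and 1260 to 1932. Against control eyes, 3 of the 7 were lower in *RBS* lesions, not *Col3a1* (log2 difference of 0.01), but this number ran from 1 without control 1 to 4 without *RBS* 1 or control 2, and *Col1a1* passed in only 2 of 9 fits that left out 1 sample. Of the same markers, 6 were lower in Shh-MBs than in control eyes and *Pdgfra* was higher (1.53, adjusted *p* = 0.00505). Of 19 genes listed as retina and lens markers only *Fgf15* and *Hes5* were on the panel, and none of the listed lens genes. The sum of these 2 genes was 3738 to 5510 in control eyes, 1772 to 2502 in *RBS* lesions, and between 476 and 606 in Shh-MBs. Most of it came from *Hes5*, which also had a mean signal of 545 in Shh-MBs. Of 12 genes listed as cerebellar granule lineage markers 5 were on the panel, namely *Zic2*, *Mycn*, *Gli1*, *Pax3* and *Map3k1*. Their sum was 1661 to 2145 in control eyes, 1199.7 to 1509 in *RBS* lesions, and between 6092 and 7491 in Shh-MBs. In Shh-MBs 4 were higher than in control eyes and 4 higher than in *RBS* lesions. Between *RBS* lesions and control eyes 1 was higher and 2 were lower. The list was chosen with earlier results of these data known, so these counts are no independent sign of lineage. Of 5 megakaryocyte, erythroid and mast cell markers, out of 14, only *Kit*, a growth factor receptor of mast cells and other cells, was called as deposited, as higher in *RBS* lesions, both against control eyes (0.48, adjusted *p* = 0.00849) and against Shh-MBs (0.94, adjusted *p* = 0.00960), and neither call held after median centring or quantile normalization. Widely expressed relatives of signaling genes, *Rac1* among them, were 7 in number. As deposited, each of the 7 passed as higher when *RBS* lesions were set against either other group. Over the panel this share was 33.0% against control eyes and 48.1% against Shh-MBs. The largest rises against control eyes were those of *Prkca* (1.48) and *Rac3* (1.34). Leaving out single samples left 6 or 7 of the 7 higher against control eyes. *Rac1* differed by 0.29 from control eyes (adjusted *p* = 0.0173) and passed in 8 of 9 fits that left out 1 sample. After median centring 3 of the 7 were higher against control eyes, and 3 were higher and 2 lower against Shh-MBs, with *Rac1* among the lower. The part of these shifts in the differences of the 9 genes was not tested.

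Finally, the genes were compared with *Csf1r*, which had the highest signal of the 9, over the 12 samples. Among 584 other genes above the lowest value in every sample, those with the highest Pearson correlation of log2 values were *Ptprr* (*r* = 0.913), *Fos* (0.913), *Stat3* (0.912), *Plat* (0.911) and *Camk2b* (0.911). With the group means removed, their *r* was 0.868, 0.834, 0.823, 0.858 and 0.675. The 12 samples share their groups and scaling, and Shh-MB 1 was the highest of the Shh-MBs for each of the 5 genes as for *Csf1r*. *Ptprr* had a signal of 335 in Shh-MB 1 and of 46.4 and 35.4 in Shh-MBs 2 and 3. Within the 9 genes, *r* with *Csf1r* was 0.734 for *Syk*, 0.704 for *Cd14*, 0.515 for *Rac2*, 0.397 for *Csf3r*, 0.353 for *Tlr4*, 0.301 for *Myd88*, 0.279 for *Tlr2* and -0.06 for *Il1b*. With the group means removed, it was 0.595 for *Syk*, 0.423 for *Rac2*, 0.333 for *Tlr2*, 0.273 for *Cd14*, 0.134 for *Tlr4*, 0.087 for *Myd88*, -0.017 for *Csf3r* and -0.21 for *Il1b*. These values describe the 12 samples and carry no test.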

How the data were processed

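RNA of 12 mouse samples was counted with the nCounter Mouse PanCancer Pathways panel. Counts were normalized by the authors (nSolver, with Advanced Analysis), and the deposited signal values are on a linear scale. Background setting and reference genes are not given in the sources used here. A fixed background takes low genes to a shared lowest value, and scaling to reference genes sets the levels between tissues, which is why other scalings were tried.

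Each pair of groups was fitted on its own with limma 3.58.1 in R 4.3.3 on log2 of the signal plus 1 (lmFit, eBayes, two-sided, Benjamini-Hochberg adjustment over 770 genes, threshold 0.05), without filter or block. All 9 genes were tested. On simulated data with 200 of 770 genes changed by 1 on the log2 scale, the fit recovered 81% of the changed genes in *RBS* lesions against control eyes, 63.5% in Shh-MBs against control eyes and 71.5% in *RBS* lesions against Shh-MBs, and 6.90%, 0.78% and 8.33% of its calls were false. The simulated noise was normal, without a floor or counting error, and rises and falls were drawn at equal odds. These rates therefore do not carry over to genes near the lowest value, such as most of the 9. Tables and figures were made with Python 3.11.15, pandas 2.3.3 and matplotlib 3.10.9. The genes and lists were chosen with earlier results of these data known. Named beside the 9 genes were up to 3 rises and 3 falls per list, *Rac1*, and the 5 genes most like *Csf1r*. *Chuk*, *Mpo*, *Ccr7* and *Col3a1*, and *Mmp9* against control eyes, fall outside this rule and were named after their values were seen. Of 770 symbols, 760 matched the RefSeq gene table directly and 10 through a synonym. The depth is that of the depositors' scaled signal, and counts under 5 carry large counting error. The replicate numbers name different animals, so samples were not paired. Tried as alternatives were a pseudocount of 5, values under 20 set to 20, leaving out genes with a low mean, 3 other scalings, all 12 samples in 1 fit, trend and robust settings, the methods' t-test with Bonferroni or Benjamini-Hochberg adjustment, a replicate block, and leaving out each sample. The methods' t-test was run as a Welch test from the t distribution, without the permutations that the methods name and with plain Bonferroni adjustment. For the lists, scalings and left-out samples were added after seeing the data. P-values measure only the spread between these samples.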

Additional observations from a re-analysis of the deposited data

Results flagged for a closer look

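The *Il1b* signal of 6.59 in *RBS* 2 stood apart from the other 4 *RBS* lesions, which lay between 1.25 and 2.46. Its gap to the next value was 0.773 of the range of the 5 lesions. Without *RBS* 2, the log2 difference of *Il1b* in *RBS* lesions was -0.24 against control eyes (adjusted *p* = 0.365) and -0.97 against Shh-MBs (adjusted *p* = 0.00270). The same check was made on 18 groups of 4 or 5 values, and chance alone marks about 1 in 20.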

How the results depend on the processing

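Of the 9 genes, 3 passed in *RBS* lesions against control eyes, 3 in Shh-MBs against control eyes and 4 in *RBS* lesions against Shh-MBs. With Bonferroni adjustment of the methods' t-test 0 passed in each (3, 3 and 2 at an unadjusted threshold, as against 4, 3 and 5 with limma), and over the panel 69 of 770 genes passed in place of 394, 35 in place of 316 and 74 in place of 468. With Benjamini-Hochberg adjustment of the same test 3, 2 and 2 passed. Setting values under 20 to 20 left 2, 0 and 2 (3, 1 and 2 unadjusted, limma). With genes of a low mean left out, 4, 2 and 3 of the 9 were tested, of which *Csf1r*, *Syk* and now *Myd88* (3), *Myd88* (1), and *Myd88* and *Syk* (2) passed. The total without the 3 most abundant genes gave 2 in *RBS* lesions against Shh-MBs, *Myd88* as higher and *Il1b* as lower. Leaving out each sample gave 3 to 4, 1 to 3 and 2 to 4, with 1 without Shh-MB 2, and 2 without *RBS* 1, 3, 4 or 5. The replicate block gave 3, 0 and 1 (3, 3 and 2 unadjusted, limma). Deviations of same-numbered samples correlated between -0.148 and 0.188, so the numbers do not pair the samples. Median centring split the panel's calls into 177 higher and 177 lower in *RBS* lesions against control eyes (254 and 140 as deposited), 311 and 139 in Shh-MBs against control eyes (74 and 242), and 181 and 319 in *RBS* lesions against Shh-MBs (370 and 98).

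Directions changed as follows on the log2 scale. In *RBS* lesions against Shh-MBs, median centring gave -0.68 for *Cd14*, -0.38 for *Csf1r*, -0.62 for *Csf3r*, -0.24 for *Rac2*, -0.11 for *Tlr2* and -0.18 for *Tlr4*. Quantile normalization gave -1.31, -0.23, -1.17, -0.69, -0.71 and -0.84 for the same genes and -0.36 for *Syk*. The total without the 3 most abundant genes gave -0.18 for *Cd14* and -0.11 for *Csf3r*, and the replicate block -0.032 for *Cd14*. In Shh-MBs against control eyes, median centring gave 0.55 for *Rac2*, 0.59 for *Syk*, 0.11 for *Tlr2* and 0.37 for *Tlr4*. Quantile normalization gave 1.01, 1.11, 0.60 and 0.94 for these and 0.13 for *Myd88*. The total without the 3 most abundant genes gave 0.16 for *Rac2*, 0.22 for *Syk* and 0.0026 for *Tlr4*. The replicate block gave 0.082 for *Rac2* and 0.12 for *Syk*, and setting values under 20 to 20 gave 0.089 for *Syk*. In *RBS* lesions against control eyes, median centring gave -0.13 and quantile normalization -0.15 for *Il1b*, and quantile normalization -0.11 for *Tlr2*. Leaving out single samples, values ran from -0.082 to 0.36 for *Cd14* in *RBS* lesions against Shh-MBs, from -0.36 to 0.24 for *Rac2* and -0.44 to 0.49 for *Syk* in Shh-MBs against control eyes, and from -0.24 to 0.20 for *Il1b* and -0.059 to 0.35 for *Tlr2* in *RBS* lesions against control eyes. The cause of these changes was not tested. Genes wholly under 20 have no value with that floor. The low counts of *Cd14*, *Il1b*, *Csf3r* and *Rac2* limit what could be detected.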
